A study of Mus musculus with 8 samples.

Results

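The genes that carry a fatty acid from the blood into the heart muscle cell, store it, make it, move it into mitochondria and oxidise it were examined as a group. The group is a list of 54 genes taken by symbol, of which 50 were found in the array annotation, each on 1 row of a table that names 19505 genes in all. Acsl1, Acsl3, Etfb and Ucp2 were not analysed here. RNA came from the left ventricle of untreated male mice of strain C57/BL6J aged 8 weeks, with 1 array per mouse: 4 wild type mice and 4 mice of the same strain with cardiac-specific overexpression of the microRNA miR-100. No source used here names the promoter that drives the transgene, the number of founder lines or whether the mice were littermates, and no row for miR-100 was matched, so the rise of the microRNA was not measured. Values are log2 signals, so a difference of 1 is a doubling, and each difference is given as miR-100 overexpressing minus wild type.

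The adult heart burns mainly fatty acids. Lipases free them from circulating lipoproteins, transporters such as CD36 bring them across the endothelium and the muscle cell membrane, and binding proteins carry them through the cytosol. Activated with coenzyme A, they are either stored as triglyceride in lipid droplets or passed by the carnitine shuttle into mitochondria, where beta-oxidation cuts them into acetyl-CoA. Malonyl-CoA, made by acetyl-CoA carboxylase, blocks the shuttle, and so links synthesis to oxidation. Nuclear receptors of the PPAR family raise many of these genes in fasting.

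A microRNA finds its targets mainly through its seed, bases 2 to 8 from the 5′ end. The sequences of the overexpressed miR-100 and its relatives are shown because the question put to Cd36, the study's candidate target, is whether this microRNA lowers it. They come from RefSeq (GRCm38.p6), with the seed in capitals. The mature miR-100-5p lies on chromosome 9 at 41531437-41531458, plus strand.
mmu-miR-100-5p: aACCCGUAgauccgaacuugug
mmu-miR-99a-5p: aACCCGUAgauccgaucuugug
mmu-miR-99b-5p: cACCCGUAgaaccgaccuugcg
All 3 share the seed ACCCGUA, and over 22 bases miR-99a-5p differs from miR-100-5p at 1 position and miR-99b-5p at 4.

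The arrays had medians between 5.70 and 5.74 and values from 2.29 to a ceiling of 19.93. An array in each group stood apart on the first principal component: wild type replicate 2 scored -38.2 against -13.0 to -3.49 on the other wild type arrays, and miR-100 replicate 2 scored 30.8 against 8.96 to 13.5 on the others of its group. The heart muscle markers were bright, and the mean log2 signal of the 10 measured ranged from 18.31 to 18.38 in wild type and from 18.32 to 18.35 in miR-100 hearts. Some of them lay near the ceiling, where a difference may not show, such as Tnnt2 at 19.8 and Pln at 19.63 in wild type. The fat cell genes Adipoq, Lep, Plin1 and Ucp1 stood near the array's floor, at 3.56, 3.85, 3.71 and 3.04 in wild type. Of 18 clock genes, each by its brightest row, 0 passed (limma) and 12 had an unadjusted p under 0.05 (66.7%, against 7.73% of all rows). Of these 8 were lower, among them Per3 at -0.81 (SE 0.15, limma adjusted p = 0.0548) and Per2 at -0.89 (SE 0.18). The other 4 were higher, among them Arntl at 1.03 (SE 0.23) and Nr1d1 at 0.80 (SE 0.19). The groups did not overlap for 9 clock genes (50%, against 4.54% of all rows). Rora has 3 rows that disagree, and its dimmest row passed at -1.26 (limma adjusted p = 0.0421). The part of the clock genes in the results below was not tested. The labels name no litters or cohorts, so each p-value reflects the spread among these 8 arrays and nothing wider. Markers of other cells had 0 genes past the threshold (limma), and their shares with an unadjusted p under 0.05 are read beside the 7.73% of all rows. For 11 fat cell markers the log2 of the summed signal ran from 10.01 to 10.36 in wild type and from 9.89 to 10.30 in miR-100 hearts, and Cidea, at 9.92 in wild type, was by far the brightest of them. Of these 5 were above 0 and 6 below. An unadjusted p under 0.05 was seen for 1 (9.09%), Adipoq at 0.43, followed by Cidec at 0.24 and Cidea at -0.26. For 9 macrophage markers the sum ran from 12.80 to 13.48 and from 13.08 to 13.52, with 5 above 0 and 4 below, from Lyz2 at 0.24 and Itgam at 0.23 to Mrc1 at -0.22, and 0 had an unadjusted p under 0.05. For 9 fibroblast markers it ran from 17.71 to 17.93 and from 17.79 to 18.00, with 4 above 0 and 5 below. They went from Lum at 0.26 to Col1a2 at -0.37 and Fbln1 at -0.68. Of these Fbln1 alone had an unadjusted p under 0.05 (11.1%). For 2 red blood cell markers, Alas2 and Slc4a1, it ran from 7.68 to 8.55 and 7.75 to 8.5 (0). Among the heart muscle markers 1 had an unadjusted p under 0.05 (10%), Mybpc3 at 0.40, with Myl3 at -0.28. Their part in the results was not tested. In whole tissue, fewer cells of a type and less RNA per cell cannot be told apart.

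Of the 50 genes, 1 passed the threshold, a limma p-value under 0.05 after Benjamini-Hochberg adjustment over all 22206 rows, and it was lower in miR-100 hearts. Over all rows 0.14% passed, and 0.045% passed and were lower. The gene is Mid1ip1, which encodes an activator of acetyl-CoA carboxylase. At an unadjusted p under 0.05 there were 9 genes, or 18% of the list, against 7.73% of all rows. Of these 6 were lower, where 4.17% of all rows were, and 3 higher, where 3.55% were. The wild type and miR-100 values did not overlap for 8 genes, 16% of the list, against 4.54% of all rows. Of those 8, 7 were lower and 1 higher, against 2.33% and 2.21% of all rows. The genes were chosen with earlier results of these data known, so these shares describe the list and do not test it. Without wild type replicate 2, 0 genes of the list passed (limma), 9 had an unadjusted p under 0.05, 35 were below 0 and the median was -0.10. Without miR-100 replicate 2 these values were 0, 9, 37 and -0.11. Over all 22206 rows, the fit without wild type replicate 2 had 15 passed, 1825 with an unadjusted p under 0.05 and 11686 below 0. Without miR-100 replicate 2 the counts over all rows were 25, 1488 and 11698.

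Differences were small for most of the list. The median over the 50 genes was -0.10, against -0.015 over all rows, and 36 were below 0, which is 72% of the list against 53.1% of all rows. The list is bright, with 49 of its genes above the median row, and among the 11101 rows that bright 9.69% had an unadjusted p under 0.05, 5.92% did not overlap and 48.6% were below 0. In 35 genes the difference was under 0.3 in size, in 13 it lay between 0.3 and 0.5, and the remaining 2, Angptl4 and Mid1ip1, differed by about 1.0 in opposite directions. The 95% confidence intervals reached a median of 0.33 to either side. They are not adjusted over all rows, so a change in a typical gene would have to be clearly larger than that to pass the threshold. Each SE and interval comes from limma, which draws the variance of a gene towards that of all rows. For genes that vary little between arrays, both are therefore wider than the gene's own values would give. The 13 genes between 0.3 and 0.5 did not pass, nor did Angptl4 at 1.0 (SE 0.34).

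**Figure D1:**
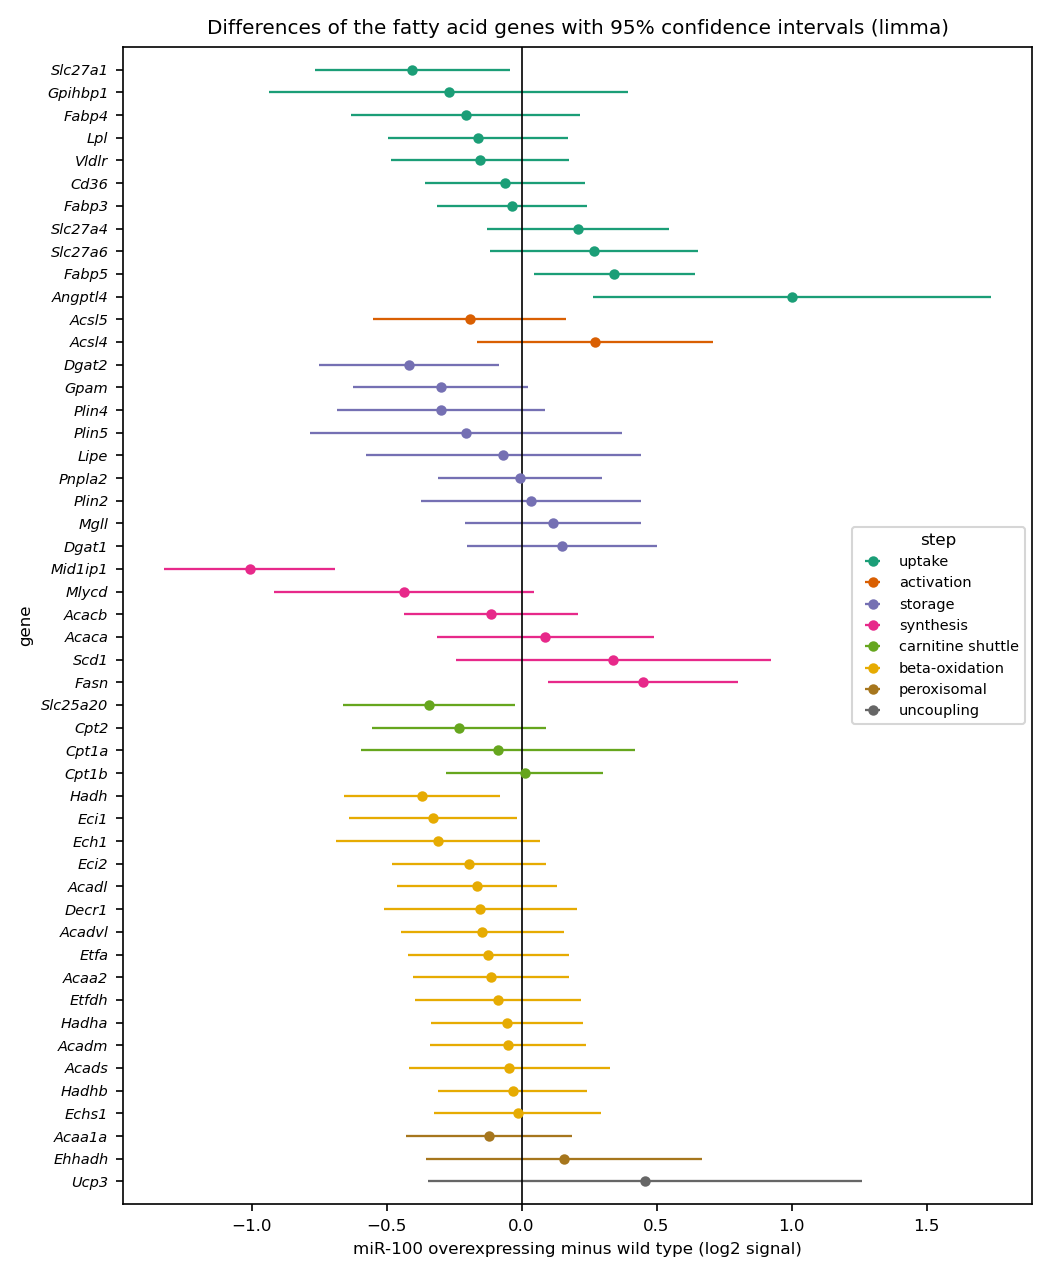
Each point is the difference of 1 gene between miR-100 overexpressing and wild type hearts in log2 signal, with its 95% confidence interval from limma (n = 4 each), coloured by step. Mid1ip1 lies farthest to the left at -1.01, Angptl4 farthest to the right at 1.0, and all 15 beta-oxidation genes lie to the left of 0.

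The uptake step starts with Cd36, the membrane transporter of long-chain fatty acids. On the wild type arrays it read 17.76, 17.45, 17.63 and 17.48, and on the miR-100 arrays 17.58, 17.50, 17.53 and 17.46. The miR-100 values lay wholly inside the wild type range. The difference was -0.06 (95% confidence interval -0.36 to 0.23), with a two-sided exact permutation p of 0.543, where 0.0286 is the smallest this design of 70 assignments allows. The interval therefore spans a change in Cd36 RNA from a fall of 0.36 to a rise of 0.23, and protein was not measured. Without wild type replicate 1, the highest array, the difference was -0.002.

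Among the 11 uptake genes 0 passed over all rows (limma), and 3 had an unadjusted p under 0.05 (27.3%, against 7.73% of all rows). The groups did not overlap for 1 (9.09%, against 4.54% of all rows). Angptl4, a secreted inhibitor of lipoprotein lipase, had the largest difference above 0 of the whole list. Its wild type values were 7.47, 7.18, 7.77 and 6.54 and its miR-100 values 8.93, 8.82, 7.91 and 7.30. The top 3 miR-100 arrays lay above every wild type array, while replicate 4 fell among them. The difference was 1.0 (SE 0.34, limma adjusted p = 0.427). Leaving out replicate 4 of the miR-100 group gave 1.31, and leaving out that of the wild type group 0.77.

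Fabp5, a fatty acid binding protein made outside muscle cells as well, was the 1 uptake gene whose groups did not overlap. It read 7.23, 7.21, 7.22 and 7.20 in wild type and 7.34, 7.72, 7.55 and 7.62 in miR-100 hearts. The wild type arrays were almost identical, and the difference was 0.34 (SE 0.14, limma adjusted p = 0.565). Slc27a1, a fatty acid transport protein of muscle and fat, read 13.43, 13.63, 13.50 and 13.51 against 13.12, 13.21, 13.43 and 12.69. Only miR-100 replicate 3 reached the wild type range, at its lower edge, and the difference was -0.41 (SE 0.17, limma adjusted p = 0.574). Without miR-100 replicate 4, its lowest array, it was -0.26.

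The other uptake genes had groups that overlapped and an unadjusted p above 0.05 (limma). Lpl, the lipase that frees fatty acids in the capillary, differed by -0.16 (SE 0.15), and Gpihbp1, which anchors that lipase to the endothelium, by -0.27 (SE 0.31). Gpihbp1 read 9.69 on wild type replicate 2 and 10.98 to 11.15 on the other wild type arrays, and without that array its difference was -0.61. It was -0.13 without wild type replicate 3, -0.16 without wild type replicate 4 and -0.08 without replicate 4 of the miR-100 group. The lipoprotein receptor gene Vldlr differed by -0.15 (SE 0.15). Fabp3, the binding protein of heart muscle, differed by -0.04 (SE 0.13) and lay near the ceiling of 19.93, at 19.66 in wild type. Fabp4, the binding protein of fat cells and capillary endothelium, differed by -0.21 (SE 0.20), and the transporters Slc27a4 and Slc27a6 by 0.21 and 0.27. Endothelial markers, beside which Fabp4 and Gpihbp1 are read, had 0 of 11 past the threshold and 0 with an unadjusted p under 0.05 (limma), with Erg at -0.28 and Tie1 at -0.20. Of the 11, 8 were below 0 (72.7%, against 53.1% of all rows) and 3 above, with a median of -0.06. The groups did not overlap for 1 of these markers (9.09%, against 4.54% of all rows). The log2 of their summed signal ran from 15.82 to 15.88 in wild type and from 15.76 to 15.93 in miR-100 hearts.

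Activation by long-chain acyl-CoA synthetases was seen through Acsl4 and Acsl5. Acsl4, which prefers arachidonic acid, read 8.79, 9.39, 8.36 and 9.09 in wild type and 9.28, 8.97, 9.17 and 9.30 in miR-100 hearts, a difference of 0.27 (SE 0.20), which became 0.09 on leaving out wild type replicate 3 and 0.43 on leaving out replicate 2. Acsl5 read 8.41, 8.25, 8.01 and 8.41 against 7.83, 8.22, 7.90 and 8.36, a difference of -0.19 (SE 0.17), which was -0.11 without replicate 1 of the miR-100 group and -0.29 without its replicate 4. The groups overlapped for both, and 0 of the 2 passed or had an unadjusted p under 0.05 (limma).

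**Figure D2:**
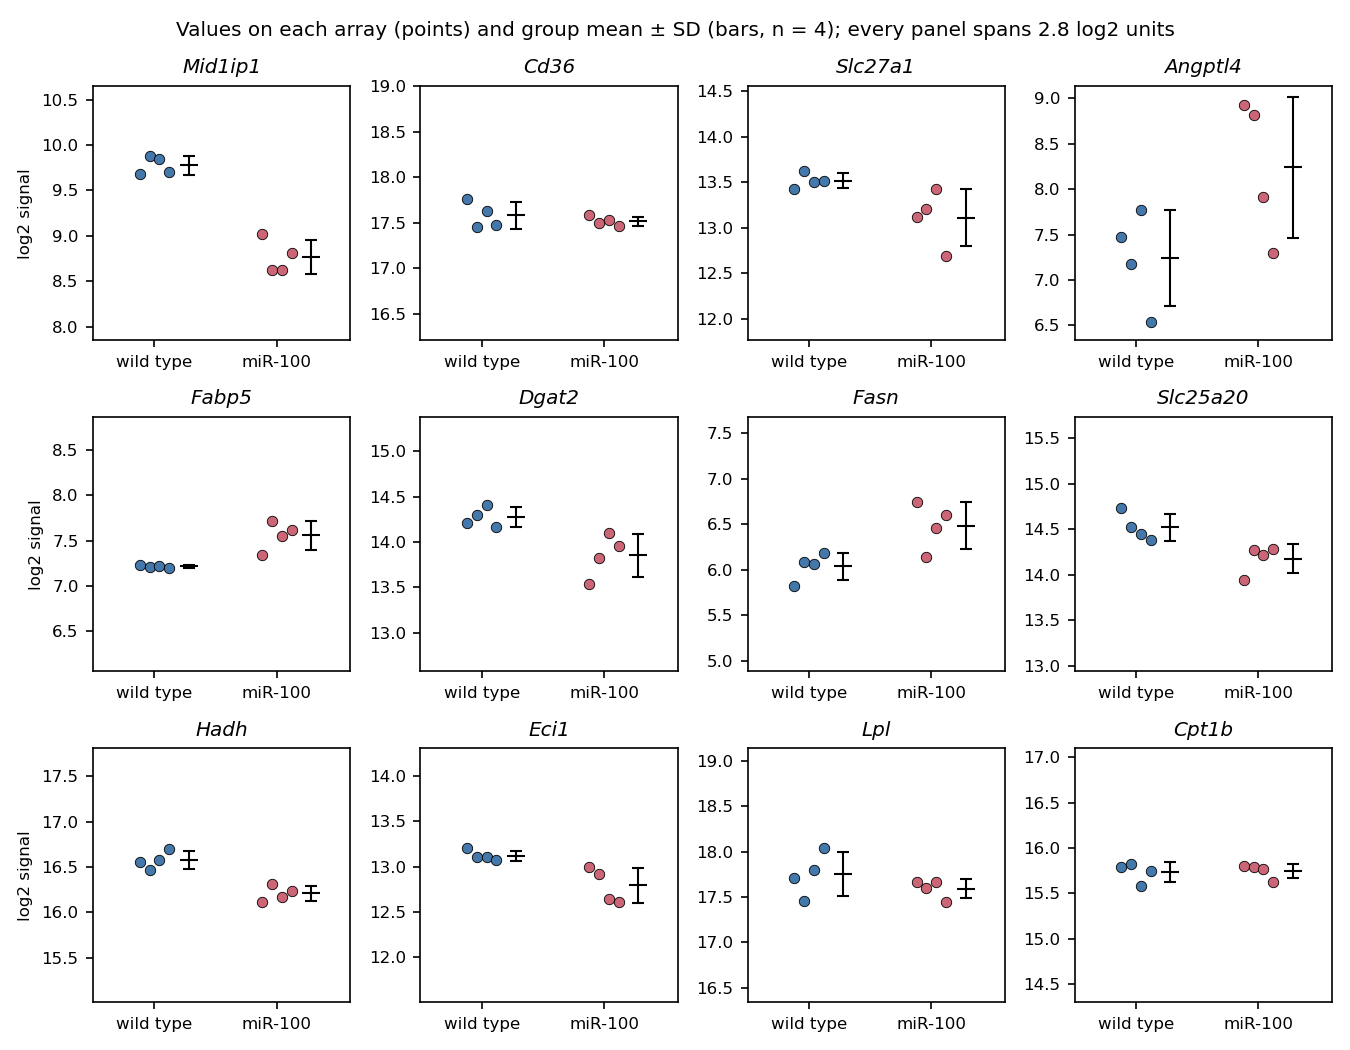
Points are the log2 signals of 12 genes on the 4 wild type and 4 miR-100 arrays, and the bars beside them are group mean ± SD. Mid1ip1, Fabp5, Dgat2, Slc25a20, Hadh and Eci1 have groups that do not overlap, whereas those of Cd36, Slc27a1, Angptl4, Fasn, Lpl and Cpt1b do.

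Storage and release of triglyceride differed little. Of 9 genes 0 passed and 1 had an unadjusted p under 0.05 (limma), or 11.1% against 7.73% of all rows, and their median difference was -0.07. That gene was Dgat2, which adds the last fatty acid to make triglyceride. Dgat2 read 14.21, 14.30, 14.41 and 14.16 in wild type and 13.54, 13.82, 14.10 and 13.95 in miR-100 hearts. All miR-100 arrays lay below all wild type arrays, by a difference of -0.42 (SE 0.15, limma adjusted p = 0.490). Its unrelated counterpart Dgat1, which performs the same reaction, differed by 0.15 (SE 0.16).

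Gpam, the mitochondrial acyltransferase that starts glycerolipid synthesis, read 15.00, 15.14, 15.21 and 14.91 against 14.67, 15.00, 14.83 and 14.56. Its groups overlapped through miR-100 replicate 2, and the difference was -0.30 (SE 0.15, limma adjusted p = 0.684). The lipases that release stored fat showed smaller values. Pnpla2, the main triglyceride lipase, differed by -0.005 (SE 0.14), Lipe, the hormone-sensitive lipase, by -0.07 (SE 0.24) and Mgll, which splits monoglycerides, by 0.12 (SE 0.15). The droplet coat genes Plin2, Plin4 and Plin5 differed by 0.04, -0.30 and -0.21, with SE 0.19, 0.18 and 0.27. The median of the 9 genes hung on single arrays: it was 0.06 without replicate 4 of the miR-100 group, 0.02 without wild type replicate 3, and -0.21 without replicate 1 or without replicate 2 of the miR-100 group.

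Synthesis and malonyl-CoA control held the clearest difference, in 1 gene. Of 6 genes 1 passed and 2 had an unadjusted p under 0.05 (limma), or 33.3% against 7.73% of all rows. The groups did not overlap for 1 (16.7%, against 4.54% of all rows). The step as a whole had no common direction, with 3 genes above 0, 3 below and a median of -0.01. Mid1ip1 read 9.68, 9.88, 9.85 and 9.70 in wild type and 9.02, 8.62, 8.63 and 8.81 in miR-100 hearts. The highest miR-100 array lay well below the lowest wild type array. The gene fell by 1.01 on the log2 scale (95% confidence interval -1.32 to -0.69, SE 0.15, limma adjusted p = 0.0167), to 0.497 of the wild type signal. The size kept between -1.09 and -0.96 in the 8 fits that left out an array, but the adjusted p passed in 3 of them. It was 0.0533 and 0.0577 without wild type replicates 2 and 3, and 0.0551, 0.0767 and 0.0628 without miR-100 overexpressing replicates 2, 3 and 4 (limma).

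The carboxylases on which the Mid1ip1 protein acts did not show a comparable difference. Acaca, the carboxylase of fatty acid synthesis, differed by 0.09 (SE 0.19), and Acacb, the form at the mitochondrial surface that makes malonyl-CoA in muscle, by -0.11 (SE 0.15). Mlycd, which removes malonyl-CoA, differed by -0.44 (SE 0.22, limma adjusted p = 0.694). Its wild type values ran from 9.63 to 10.59 and its miR-100 values from 9.30 to 10.18, so the groups overlapped.

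Fasn, the synthase that builds palmitate, had a difference opposite in sign to that of Mid1ip1. It read 5.82, 6.08, 6.06 and 6.18 in wild type and 6.74, 6.14, 6.46 and 6.60 in miR-100 hearts, a difference of 0.45 (SE 0.16, limma adjusted p = 0.470). Only miR-100 replicate 2 lay within the wild type range. Scd1, the desaturase that makes oleate, differed by 0.34 (SE 0.27) with wild type values from 7.07 to 8.24. Without wild type replicate 1, its lowest array, the difference was 0.10, and without replicate 2 of the miR-100 group, its highest, 0.13.

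The carnitine shuttle showed 0 of 4 genes past the threshold and 1 with an unadjusted p under 0.05 (limma), or 25% against 7.73% of all rows. The groups did not overlap for 2 of the 4 (50%, against 4.54% of all rows). Slc25a20, the carrier that exchanges acylcarnitine for carnitine across the inner membrane, read 14.73, 14.52, 14.45 and 14.38 in wild type and 13.94, 14.27, 14.22 and 14.28 in miR-100 hearts. The groups did not overlap, and the difference was -0.34 (SE 0.15, limma adjusted p = 0.608). Cpt2, which returns the acyl group to coenzyme A inside the mitochondrion, read 12.87, 13.31, 12.82 and 12.87 against 12.77, 12.71, 12.75 and 12.71. Those groups did not overlap either, but wild type replicate 2 carried much of the difference, which was -0.23 with it (SE 0.15) and -0.12 without it. Cpt1b and Cpt1a, the muscle and liver forms of the gatekeeper on the outer membrane, differed by 0.01 (SE 0.13) and -0.09 (SE 0.24).

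In beta-oxidation 0 of 15 genes passed over all rows and 2 (13.3%) had an unadjusted p under 0.05 (limma). The groups did not overlap for 3 (20%). All 15 differences were below 0, where 53.1% of all rows were. Among the 2461 rows at least as bright as the dimmest of these genes, 8.13% had an unadjusted p under 0.05, 7.64% did not overlap, 47.6% were below 0 and the median was 0.008. The 15 genes had a median of -0.12, a ratio of 0.919, and ranged from -0.37 to -0.01. Their mean log2 signal ran from 15.88 to 15.99 on the wild type arrays and from 15.74 to 15.81 on the miR-100 arrays, so the ranges did not overlap. These genes share regulators and arrays and are not independent. Between 14 and 15 of them stayed below 0 in each fit that left out an array, and 14 did without wild type replicate 2, with a median of -0.10.

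**Figure D3:**
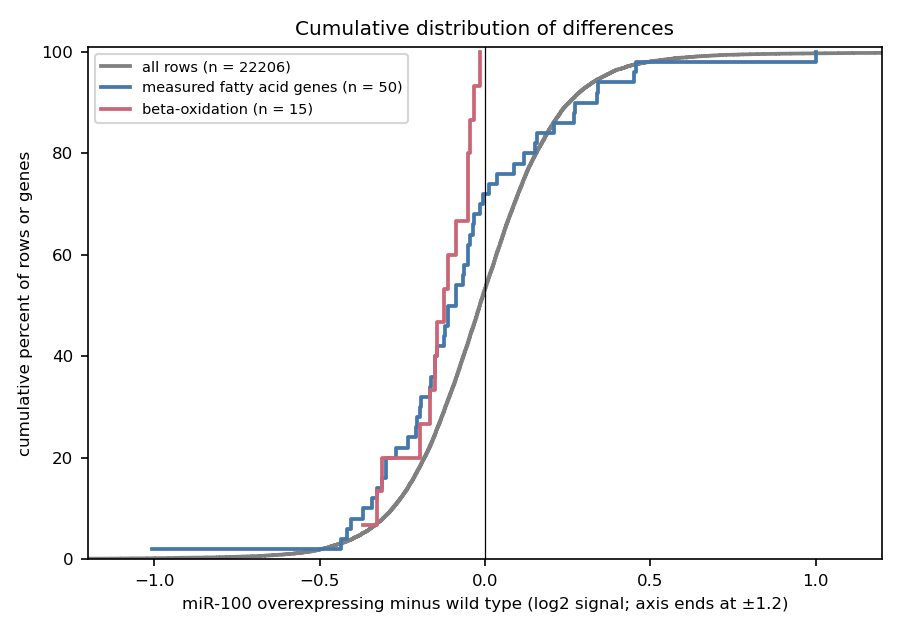
Curves give the cumulative percent of rows or genes against the difference between miR-100 overexpressing and wild type hearts in log2 signal, for all 22206 rows, the 50 measured fatty acid genes and the 15 beta-oxidation genes. The beta-oxidation curve reaches 100% before 0, where the curve of all rows stands at 53.1%.

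Hadh, the dehydrogenase of the third step for shorter chains, had the lowest unadjusted p of the step. It read 16.56, 16.47, 16.58 and 16.70 in wild type and 16.12, 16.31, 16.17 and 16.24 in miR-100 hearts. The groups did not overlap, with a difference of -0.37 (SE 0.13, limma adjusted p = 0.478). Eci1, an isomerase that prepares unsaturated chains, read 13.20, 13.10, 13.11 and 13.07 against 13.00, 12.92, 12.64 and 12.61, a difference of -0.33 (SE 0.14, limma adjusted p = 0.620). Eci2, which has the same task, also had groups that did not overlap, from 14.45 to 14.53 in wild type and from 14.16 to 14.38 in miR-100 hearts, a difference of -0.20. Ech1, another enzyme of unsaturated chains, differed by -0.31 (SE 0.18) and Decr1, the dienoyl-CoA reductase, by -0.15 (SE 0.16). For Ech1, miR-100 replicate 4 read 17.30 and the other miR-100 arrays 17.89 to 18.02, and without that array the difference was -0.15.

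The acyl-CoA dehydrogenases, which open each cycle for chains of different length, differed by -0.17 in Acadl, -0.15 in Acadvl, -0.05 in Acadm and -0.05 in Acads (SE 0.14, 0.14, 0.13 and 0.17). Their electrons pass to Etfa and Etfdh, which differed by -0.12 and -0.09. The hydratase gene Echs1 differed by -0.02 (SE 0.14), and the thiolase gene Acaa2 by -0.11 (SE 0.13). Hadha and Hadhb, the subunits of the trifunctional protein that handles long chains, varied least between arrays of a group within this step. Hadha differed by -0.05 and Hadhb by -0.03, each with SE 0.13, and the within-group SD was 0.06 and 0.04. That SE is drawn towards the variance of all rows and is larger than these SDs alone would give.

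In the peroxisome, where very long chains are shortened, Ehhadh read 7.80, 6.85, 7.26 and 6.66 in wild type and 7.23, 7.62, 7.44 and 6.91 in miR-100 hearts, a difference of 0.16 (SE 0.24). The thiolase gene Acaa1a read 8.71, 8.82, 8.85 and 8.86 against 8.85, 8.55, 8.52 and 8.84, a difference of -0.12 (SE 0.14). Both overlapped. Ucp3, an inner membrane carrier that muscle raises when fatty acids are plentiful, read 12.44, 12.14, 12.15 and 11.26 against 12.98, 13.28, 12.31 and 11.25. Its difference was 0.46 (SE 0.37). Single arrays moved it, to 0.86 when replicate 4 of the miR-100 group was left out, to 0.18 and 0.28 when its replicates 2 and 1 were, and to 0.21 when wild type replicate 4 was. None of these 3 genes passed (0 in limma) and 0 had an unadjusted p under 0.05.

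**Figure D4:**
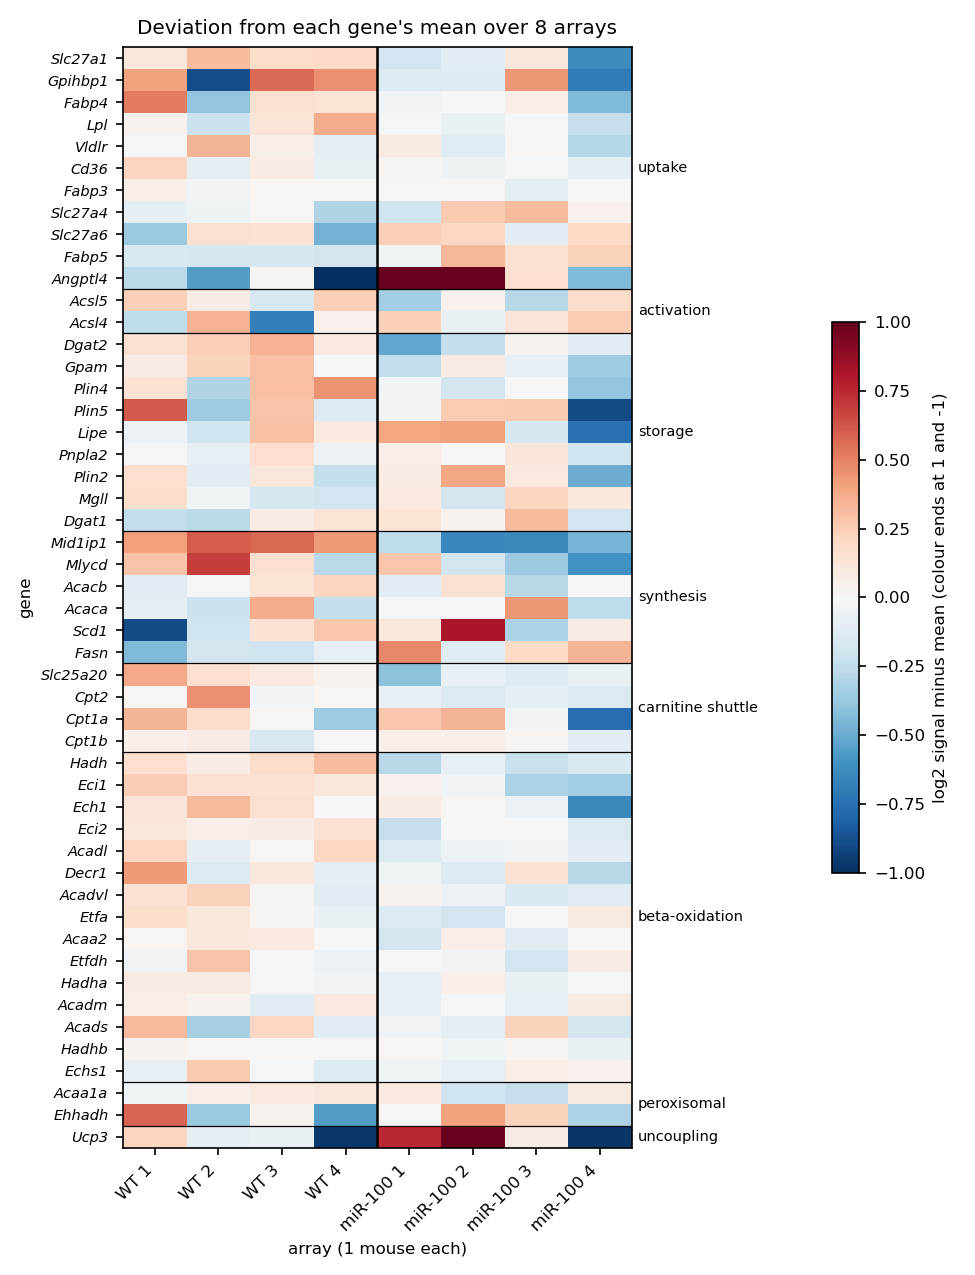
Colours give the log2 signal of each gene minus its mean over the 8 arrays, with arrays in columns (WT, wild type) and genes grouped by step. Mid1ip1 is red on all wild type and blue on all miR-100 arrays, the beta-oxidation block is mostly pale, and miR-100 replicate 4 is blue in many storage and uptake genes.

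Much of the variation in this list ran between mice of the same group. The within-group SD was largest for Ucp3 (0.73), Angptl4 (0.66), Gpihbp1 (0.59), Scd1 (0.50), Plin5 (0.49), Ehhadh (0.42), Lipe (0.42), Cpt1a (0.41) and Mlycd (0.38), against a median of 0.18 over the 50 genes and 0.25 over all rows. At the other end stood Fabp3 and Hadhb, both at 0.04. The 15 beta-oxidation genes had a median of 0.12. Low values were not spread evenly over the arrays. MiR-100 overexpressing replicate 4 was the single lowest of its group in 25 of 50 genes, or 50% of the list, and in 25.3% of all rows. Wild type replicate 4 was lowest of its group in 23 genes, or 46%, and in 25.7% of all rows.

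The variable genes shared these low arrays. Of the 9 listed, miR-100 overexpressing replicate 4 was lowest of its group in 8 and wild type replicate 4 in 5. Pdk4, a kinase that spares glucose by shutting pyruvate dehydrogenase and that fasting raises, was looked at after these values were seen. It read 16.52, 15.53, 16.29 and 14.75 in wild type and 16.29, 16.40, 15.75 and 13.51 in miR-100 hearts, so the same arrays were lowest. The mice had free access to a standard diet, per the labels, which give neither feeding state nor hour at collection. What sets the low arrays apart, feeding included, was not tested. Without miR-100 overexpressing replicate 4, 7 of the 50 genes had an unadjusted p under 0.05, 31 were below 0 and 0 passed (limma). The same counts over all 22206 rows in that fit were 1632, 11833 and 11.

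**Figure D5:**
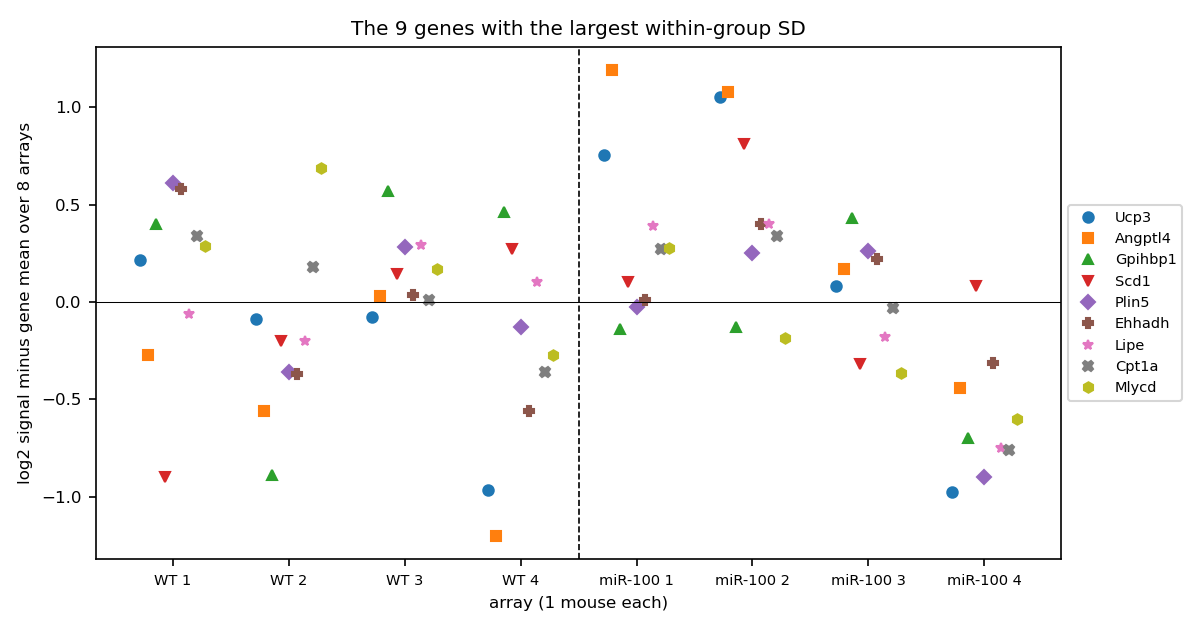
Points give the log2 signal minus the gene's mean over 8 arrays for the 9 genes with the largest within-group SD, by array (WT, wild type). On miR-100 replicate 4 all genes but Scd1 lie below 0, and Ucp3 and Angptl4 are lowest of the wild type group on replicate 4.

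Genes that control or extend the pathway were read from lists of their own, and 0 members of the 5 lists passed over all rows (limma). Over all rows 7.73% had an unadjusted p under 0.05, beside which the share of each list is given. The first list held 20 regulators, from the PPAR, ERR and PGC-1 families and beyond them, such as Nrf1, Sirt1 and Foxo1. Of these 2 had one (10%), both lower, and the median difference was -0.10. Lpin1, a phosphatidate phosphatase that also assists PGC-1, read 13.01, 13.03, 13.17 and 13.21 in wild type and 12.67, 12.67, 12.78 and 12.55 in miR-100 hearts. Its groups did not overlap, and the difference was -0.44 (SE 0.14, limma adjusted p = 0.360). Ppara, the PPAR of fatty acid oxidation, differed by -0.54 (SE 0.22, limma adjusted p = 0.568), from 10.37 ± 0.34 to 9.83 ± 0.41 (SD, n = 4 each). It was -0.34 without miR-100 overexpressing replicate 2. Its coactivator gene Ppargc1a differed by 0.06 (SE 0.22).

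Among 28 other genes of fatty acid breakdown 1 had an unadjusted p under 0.05 (3.57%), and the median was 0.04. This was Crot, the peroxisomal carnitine octanoyltransferase, which read 10.48, 10.63, 10.36 and 10.52 in wild type and 10.92, 11.10, 10.78 and 11.36 in miR-100 hearts. The groups did not overlap, with a difference of 0.54 (SE 0.16, limma adjusted p = 0.326). Acsf2, an acyl-CoA synthetase, followed with 0.39 (SE 0.18). Of these 28 genes 12 were below 0, or 42.9%, against 53.1% of all rows.

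Among 29 lipogenic regulators and targets 5 had an unadjusted p under 0.05 (17.2%), 4 of them higher where 3.55% of all rows were, and the median was 0.11. Elovl1, an elongase, read 10.32, 10.26, 10.03 and 10.38 against 11.16, 10.54, 10.78 and 10.51, and its difference was 0.50 (SE 0.17, limma adjusted p = 0.427). Insig1, which holds back the sterol-sensing SREBP factors, read 8.57, 8.70, 8.69 and 8.13 against 9.70, 8.75, 9.18 and 8.82, and its difference was 0.59 (SE 0.21, limma adjusted p = 0.476). The groups overlapped in neither gene. Thrsp, the close relative of Mid1ip1, differed by -0.02 (SE 0.26), with wild type values from 10.34 to 11.67.

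Among 43 further genes of lipid droplets and glycerides 3 had an unadjusted p under 0.05 (6.98%), and the median was -0.04. Fabp7, a binding protein of the nervous system, differed by 0.43 (SE 0.16) and Ces1d, a carboxylesterase, by -0.32 (SE 0.14). Among 11 genes of AMPK, the kinase that inhibits acetyl-CoA carboxylase, and of other kinases listed with it, such as Stk11, 0 had an unadjusted p under 0.05. Prkaa2, the catalytic subunit of muscle, differed by 0.20 (SE 0.16) and Prkag3 by -0.19 (SE 0.17).

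Promoters of 3 genes are shown because Mid1ip1 passed the test, Hadh stood lowest in p among the oxidation genes, and Hadhb shares its upstream region with Hadha. Each sequence is the 250 bases before the annotated start in RefSeq (GRCm38.p6), written 5′ to 3′ on the gene's strand, with the letters GGGCGG, the GC box, or its reverse complement in capitals.
Mid1ip1, chrX:10717115-10717364, plus strand: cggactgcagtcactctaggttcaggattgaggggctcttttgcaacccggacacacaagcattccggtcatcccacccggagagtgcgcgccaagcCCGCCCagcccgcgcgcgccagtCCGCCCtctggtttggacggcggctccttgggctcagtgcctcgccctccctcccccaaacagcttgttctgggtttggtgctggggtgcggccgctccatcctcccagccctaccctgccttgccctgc
Hadh, chr3:131272102-131272351, minus strand: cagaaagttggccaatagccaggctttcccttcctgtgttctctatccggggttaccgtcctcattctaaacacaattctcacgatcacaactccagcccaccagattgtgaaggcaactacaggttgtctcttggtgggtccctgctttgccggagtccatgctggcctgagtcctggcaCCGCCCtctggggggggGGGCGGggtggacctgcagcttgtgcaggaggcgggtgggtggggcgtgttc
Hadhb, chr5:30155003-30155252, plus strand: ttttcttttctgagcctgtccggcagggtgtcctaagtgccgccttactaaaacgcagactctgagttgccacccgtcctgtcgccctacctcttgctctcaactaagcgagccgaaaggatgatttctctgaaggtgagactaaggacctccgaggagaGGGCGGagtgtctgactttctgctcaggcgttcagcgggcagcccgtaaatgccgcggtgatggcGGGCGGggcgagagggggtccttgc
Each of the 3 holds 2 GC boxes. Hadha and Hadhb start 273 bases apart and are read in opposite directions, so the region printed for Hadhb lies between both starts.

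Of the 50 measured genes 38 had a promoter in the table, with 45 windows of 250 bases. GGGCGG on either strand was found in 27 of 45 windows (60%) and in 32.7% of all 32851 windows. AGGTCA, a half-site of nuclear receptors and not a full element, was found in 9 windows (20%) against 14% of all. These belonged to Acadm, Acadvl, Cd36, Cpt1a, Echs1, Gpam, Plin2, Plin5 and Ucp3. The direct repeat of AGGTCA with 1 base between the copies, which contains the former, was found in 0 of the 45 and in 0.0335% of all windows, and the E-box CACGTG in 3 (6.67%) against 6.02%. These matches describe letters only and are no evidence of binding.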

How the data were processed

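Expression was measured on Affymetrix arrays in 8 left ventricles. Per the labels' protocols, RNA was extracted with TriPure and prepared with the WT Plus kit. The authors deposited a log2 signal for each transcript cluster, and the submitters' processing notes name Transcriptome Analysis Console 4.0. How signals were normalized and summarized, and on which genome build, is not given in the sources used here. Of 22206 rows, 19572 had 1 gene symbol in the platform annotation and 2634 had none.

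The test was limma 3.58.1 (R 4.3.3) on all rows (group as the only term, no filter), with Benjamini-Hochberg adjustment over every row and a threshold of 0.05. Cd36 was also compared with an exact permutation test. The limma script was checked on simulated data. Alternatives were leaving out each array, a replicate block, other thresholds, named rows alone, dropping rows below the 25th or the 50th percentile of mean signal, centring on the median, quantile normalization, weighting of arrays and other moderation. All measured genes of the list are named. Values on every array are given for Cd36, for genes past the threshold and for the 2 genes of lowest unadjusted p in each step, and Slc27a1 was added after values were seen. From the other lists the 2 of lowest unadjusted p are named. Ppargc1a, Pdk4, Thrsp, Lep, Plin1, Ucp1, Cidea, Mrc1, Lum, Rora, Arntl and Nr1d1 were added afterwards. Members and lists were chosen with earlier results of these data known. Signal over background, and the number of arrays, limit precision.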

Additional observations from a re-analysis of the deposited data

Results flagged for a closer look

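Single arrays stood apart from the other 3 of their group in 7 of 138 groups of 4 (5.07%), by Dixon's criterion at the 95% level, where chance gives about 1 in 20. Wild type replicate 2 accounted for 3 of them. It read 9.69 for Gpihbp1 (others 10.98 to 11.15), 13.31 for Cpt2 (others 12.82 to 12.87) and 17.49 for Etfdh (others 17.15 to 17.20). Slc27a6 read 4.52 on miR-100 overexpressing replicate 3 (others 4.82 to 4.86). Hadhb read 17.72 on wild type replicate 1 while the others were all 17.69. The criterion was met there through tied values, although the gap was small. The clock gene Per3 read 10.99 on wild type replicate 3 (others 11.26 to 11.31), and the endothelial gene Erg read 10.65 on wild type replicate 1 (others 10.41 to 10.45).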

How the results depend on the processing

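The count of list genes past the threshold stayed at 1 under other moderation, array weights, both normalizations, both filters, named rows alone and a threshold of 0.1, and was 0 at a threshold of 0.01. Leaving out single arrays gave 0 to 1. Over all rows the count was 65 with an intensity trend and 11 to 27 without single arrays. The count of clock genes, 0 in the main fit, was 2 with an intensity trend and 2 without wild type replicate 1. It was 1 with either filter and 1 with named rows alone. With the replicate number as a block the list count was 0, with a limma adjusted p of 0.0677 for Mid1ip1, and 21 rows passed. The numbers did not pair the arrays (correlations of deviations 0.0072, -0.0596, 0.0663 and -0.0239, and 3 of 8 arrays correlated best with their own number).

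Apart from Cd36, which kept its direction in all 17 alternatives, 10 list genes changed sign somewhere and none of those 10 passed anywhere. Echs1 was 0.006 with array weights and Pnpla2 0.001 with median centring. Without single arrays Pnpla2 ran from -0.045 to 0.062, Lipe from -0.212 to 0.171, Plin2 from -0.087 to 0.206, Plin5 from -0.358 to 0.060, Acaca from -0.044 to 0.225, Cpt1a from -0.222 to 0.151, Cpt1b from -0.039 to 0.052, Acads from -0.164 to 0.056, Echs1 from -0.062 to 0.071 and Ehhadh from -0.003 to 0.377. Of the other named genes, Ppargc1a ran from -0.121 to 0.219, Pdk4 from -0.626 to 0.374 and Thrsp from -0.255 to 0.188. The cause was not tested.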
